A study of Sus scrofa with 36 samples.

Results

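The adrenal glands of Large White and Creole pigs were compared at 24 °C, before any rise in ambient temperature. The comparison used the 12 arrays labelled Large White or Creole at 24 °C among the 36 arrays of the series, with 6 pigs of each breed and 1 array per pig. All pigs were castrated males raised in Guadeloupe, kept under thermoneutral (TN) conditions with free access to the same diet and slaughtered before the heating of the room. The series also holds 6 Large White and 6 Creole pigs slaughtered after several days of heat stress (HS), and 12 pigs of the cross between both breeds (F1). For the HS pigs the labels give 30 °C, which is not the temperature that the study's methods state.

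The limits of the groups as a model of the breeds follow from the design. Pens held pigs of a single breed, litters were nested in breeds, and TN and HS pigs of a breed came from the same litters. Pen, litter and day of slaughter are not given with the arrays, so breed cannot be told apart from litter and pen. The p-values treat the pigs of a group as independent, although these came from fewer litters and pens than there are pigs. All were growing pigs, and the labels give no age.

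The adrenal gland joins a pair of endocrine tissues. The cortex turns cholesterol into glucocorticoids, mineralocorticoids and androgens under the control of ACTH and angiotensin, and the medulla holds chromaffin cells, which make catecholamines and store them in granules together with chromogranins, secretogranins and neuropeptides. RNA was taken from powdered glands, so a lower value can stand for fewer cells of a type or for less RNA per cell, which cannot be told apart here. The labelled tissue was met by its defining markers: the probes of the cholesterol side-chain enzyme CYP11A1, of CYP17A1 and of chromogranin A (CHGA) were well above background on the 6 arrays of both breeds.

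Values are log2 intensities, and differences are Large White minus Creole on that scale, with a standard error (SE) from limma and a Benjamini-Hochberg adjusted p over the 45348 probes of the table. A probe was called when its adjusted p was under 0.05, and a gene with several probes is given by its brightest probe unless stated otherwise. Correlations between any pair of the 12 arrays lay between 0.984 and 0.996, and 40299 of the 45348 probes were well above background on all 12 arrays. The arrays lay on 5 slides, and 2 Large White pigs lay on a slide without a Creole pig of the comparison, so differences were also taken within the 4 slides that held both breeds.

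Large White and Creole adrenals differed at 1453 probes, which is 3.2% of those tested. Of these, 878 (1.94%) were higher and 575 (1.27%) lower in Large White. The median size of a called difference was 0.585 and the lowest 0.219, and 229 probes differed by at least 1, of which 99 were higher and 130 lower in Large White. The 6 and 6 pigs did not overlap at 1115 probes (2.46%), among which were 887 of the called ones. By brightest probe, 374 of 12602 named genes were called (2.97%), 226 higher (1.79%) and 148 lower (1.17%), and the median difference over all probes was -0.002. Of the 1453 called probes, 770 carried a name and stand for 506 symbols. With the slide as a fixed block 723 probes were called, with it as a random block 1684, and on the slides with both breeds alone 533. Where the slide is called a block below, the fixed block is meant unless stated. Without Creole replicate 3 the count was 959, and without Large White replicate 2 it was 967.

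The largest gene differences were spread over unlike functions. On the higher side in Large White stood an antizyme (OAZ3), the stem cell factor receptor (KIT), a lysosomal glucuronidase (GUSB) and a secretogranin (SCG2). On the lower side stood a cytoskeletal protein (PDLIM3), a glutathione transferase (MGST2) and a transcription factor (USF1). The 15 largest differences of each direction, among called genes whose pigs did not overlap, ranged from 2.23-fold to 8.35-fold on the higher side and from 1.92-fold to 8.50-fold on the lower side.

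OAZ3, an ornithine decarboxylase antizyme of polyamine control that is best known from the testis, maps to chromosome 4 in Sscrofa11.1, from 97439993 to 97448493. The lowest, median and highest log2 values of the gene were 10.30, 10.66 and 11.38 in Large White and 7.47, 7.72 and 8.10 in Creole. No Large White pig came near a Creole pig. The difference was 3.06 (SE 0.18, adjusted p = 4.48e-06), it lay between 2.61 and 3.75 on the 4 slides with both breeds, and all 3 probes of the gene were called in the same direction.

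KIT, the receptor of stem cell factor and the gene of the dominant white coat locus of pigs, lies on chromosome 8 from 41402334 to 41492306. Its values were 11.85, 12.02 and 12.48 (lowest, median, highest) in Large White and 10.07, 10.34 and 11.02 in Creole. The groups were separate, with a difference of 1.64 (SE 0.17, adjusted p = 0.000321), and all 5 probes were called, with differences from 1.33 to 1.71. The neighbouring receptor genes on that chromosome gave other patterns. KDR, the main receptor of vascular endothelial growth factor, was higher by 0.80 (SE 0.16, adjusted p = 0.0161) at its brightest probe and differed by -0.03 and -0.10 at the other probes, which were not called. PDGFRA, a receptor of platelet-derived growth factor that marks fibroblasts, was lower by brightest probe, with a difference of -0.39 (SE 0.07, adjusted p = 0.0127).

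GUSB, the lysosomal beta-glucuronidase, had values from 12.55 to 13.23 in Large White and from 11.05 to 11.48 in Creole, without overlap. Its difference of 1.62 (SE 0.12, adjusted p = 2.67e-05) was matched by its other probe at 1.65. The apoptosis factor XAF1, an interferon-induced gene, had values from 9.61 to 10.54 in Large White and from 7.53 to 9.23 in Creole, without overlap. It was higher in Large White by 1.70 (SE 0.25, adjusted p = 0.00298). Its other probe was also called but differed less, by 0.84 (adjusted p = 0.0281), and there the pigs overlapped.

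The other genes of the higher side were mostly represented by few probes. They were EFHD1, a mitochondrial calcium-binding protein (difference 1.88), SYT13, an atypical synaptotagmin (1.73), DCPS, the scavenger enzyme of decapped mRNA (1.56), and GLRX, a glutaredoxin (1.54). ATP1B2, a beta subunit of the sodium-potassium pump, differed by 1.49, and CNTN3, a neuronal adhesion protein, by 1.47. VSTM2L (1.45, and 0.65 at its other probe, also called), GDAP1L1 (1.16) and CYP1A2, a cytochrome of foreign compound metabolism (1.27), followed. CATSPERB, a subunit of the sperm calcium channel, differed by 1.80 at its brightest probe, which was well above background on 6 Large White arrays and on 1 Creole array, so that most Creole values are no more than background.

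PDLIM3, a PDZ and LIM domain protein of the actin cytoskeleton, lies on chromosome 15 from 46516178 to 46546658. Its values were 8.59, 9.04 and 9.76 (lowest, median, highest) in Large White and 10.06, 12.39 and 13.36 in Creole. A single Creole pig, replicate 6, lay close to the Large White pigs, and the others were far above them. The difference was -3.09 (SE 0.42, adjusted p = 0.00187), and all 10 probes of the gene were called in the same direction, from -3.14 to -1.01.

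MGST2, a microsomal glutathione transferase, had values of 9.62, 9.92 and 11.79 in Large White and 11.90, 12.68 and 12.86 in Creole (lowest, median, highest). The highest Large White pig, replicate 4, lay just under the lowest Creole pig, also replicate 4. The difference was -2.41 (SE 0.31, adjusted p = 0.0014), and this gene has 1 probe.

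USF1, an upstream stimulatory factor that binds E-box motifs, had values from 8.36 to 8.80 in Large White and from 9.33 to 10.72 in Creole. The difference was -1.59 (SE 0.20, adjusted p = 0.000953), and all 5 probes were called, from -1.59 to -0.82. VMO1 (-2.03), the Notch ligand DLL3 (-1.85), the synaptic vesicle protein SV2C (-1.81) and the histone demethylase PHF2 (-1.68) each had 1 probe. CA12, a membrane carbonic anhydrase (-1.42), PUSL1 (-1.36), CYS1, a protein of the primary cilium (-1.24), NOV, a matricellular protein (-1.03), and BLVRA, which reduces biliverdin (-0.94), likewise had 1 probe. Both probes of ADSSL1, an adenylosuccinate synthase (-1.15), were called, against 1 of the 4 probes of EPHX2, the soluble epoxide hydrolase (-1.31).

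**Figure D1:**
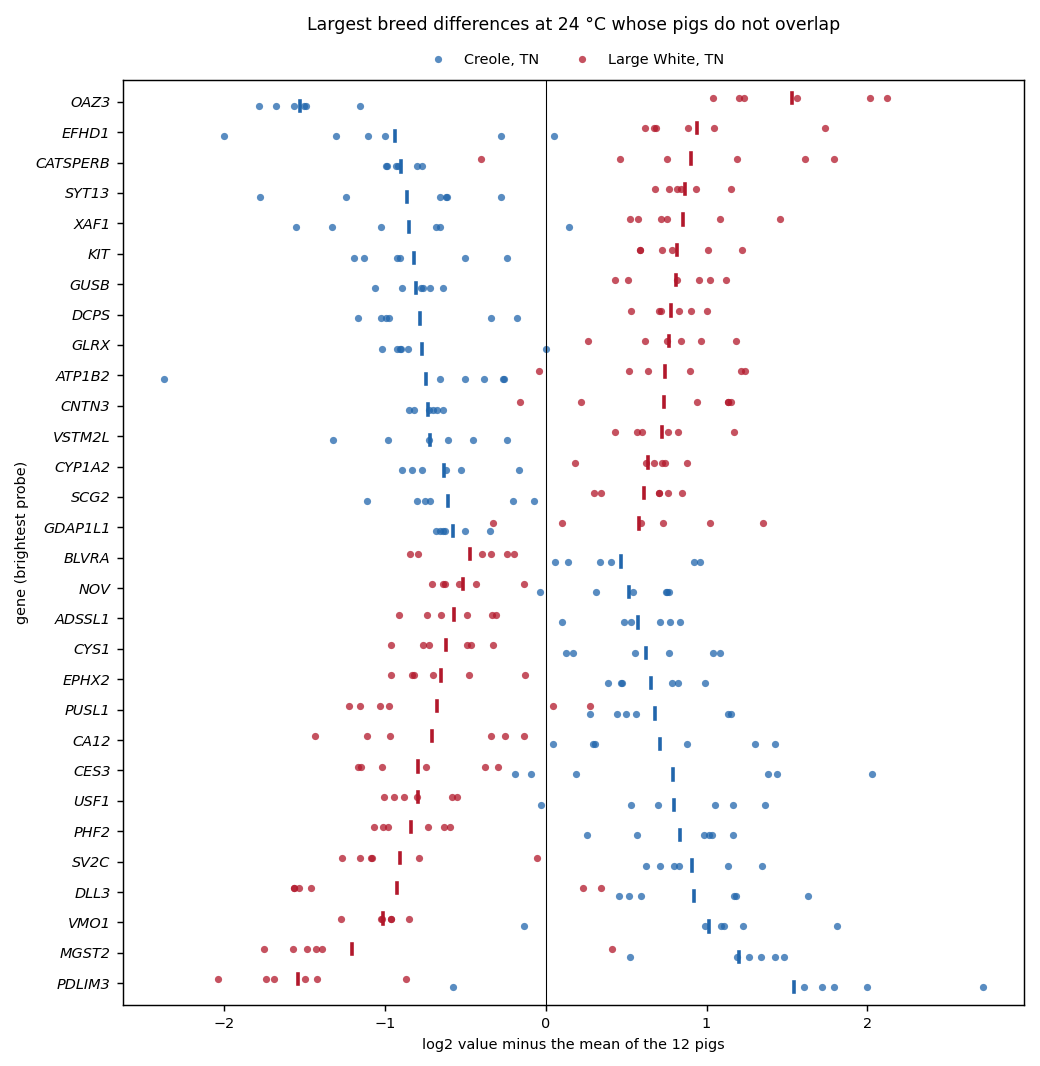
Log2 value of each of the 12 TN pigs minus the mean of the 12 pigs (x axis), for the 15 genes of largest difference in each direction (y axis), with Large White in red, Creole in blue and vertical ticks for the group means. Red and blue points do not overlap in any gene, because the genes were chosen for that, and single pigs stand apart from their breed in PDLIM3, MGST2 and ATP1B2.

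The call of some of these genes depended on how the slide was handled. Of the 30, 26 were called with the slide as a fixed block, and the exceptions were ATP1B2 (adjusted p = 0.221), DLL3 (adjusted p = 0.16), CES3 (adjusted p = 0.121) and PUSL1 (adjusted p = 0.106). With the slide as a random block 0 of the 73 called named values, which include these 30, missed the threshold. The direction within each slide was fixed by the choice of genes whose pigs did not overlap, so it carries no further information. CES3, a carboxylesterase, and CES1 cannot be told apart, since the brightest probes of both carry an identical sequence of 60 bases (differences -1.59 and -1.63).

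The F1 cross at 24 °C is set beside its parents as a description, with no test, because it would share their samples. Its mean lay between both parental means in 28 of the 30 genes. OAZ3 had an F1 mean of 9.72, closer to Large White, but its F1 pigs ran from 7.96 to 10.64 and the lowest lay in the Creole range. KIT had an F1 mean of 11.32, close to the middle of both. PDLIM3 had an F1 mean of 9.31, near Large White. USF1 had an F1 mean of 8.82, where 1 pig lay in the Creole range. The exceptions were EFHD1 (F1 mean 9.60) and CES3 (8.34), which lay above both parents.

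**Figure D2:**
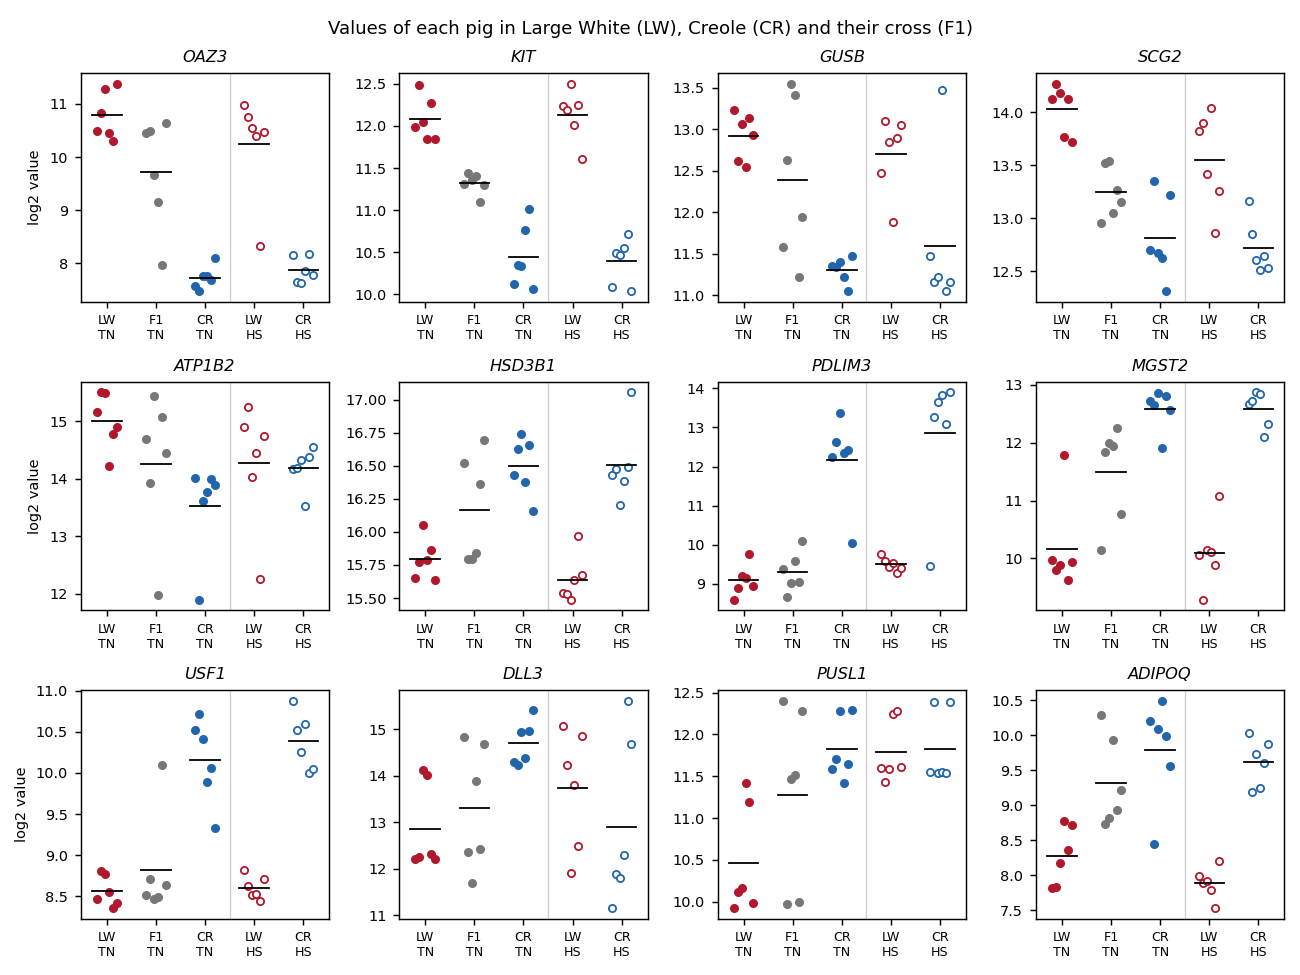
Log2 value of every pig (y axis) in Large White (red), F1 (grey) and Creole (blue), with filled points for TN pigs, open points for HS pigs and a line for each group mean, for 12 genes. The Large White and Creole pigs are separate under both temperatures in KIT, whereas ATP1B2, DLL3 and PUSL1 overlap in HS pigs.

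The steroid pathway of the cortex held 1 called gene. Of 22 genes of steroid synthesis with a probe, HSD3B1 was lower and none was higher in Large White, a share of 4.55% against the 2.97% of all genes, and the median difference of the list was 0.00. HSD3B1 encodes the 3-beta-hydroxysteroid dehydrogenase that makes progesterone from pregnenolone, and the gene of that symbol lies on chromosome 4 from 101565229 to 101574110. The list held it as HSD3B, and whether its probes tell this gene from near-identical copies was not tested. Its values were 15.64, 15.78 and 16.06 (lowest, median, highest) in Large White and 16.16, 16.53 and 16.74 in Creole. The groups did not overlap, and the difference was -0.70 (SE 0.10, adjusted p = 0.00304), with the second probe at -0.80, also called.

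The other steroidogenic genes were not called at their brightest probe. Of the 22 genes 8 had an unadjusted p under 0.05, HSD3B1 included, where 2013 of all 12602 genes (16.0%) had one. STAR, which carries cholesterol into the mitochondrion, differed by -0.22 (95% confidence interval -0.45 to 0.01), and each of its 10 probes was below 0 without a call. CYP11A1 differed by 0.03 (interval -0.09 to 0.14), the 17-alpha-hydroxylase CYP17A1 by 0.17 (0.00 to 0.34) and the 21-hydroxylase CYP21A2 by -0.13 (-0.46 to 0.20). HSD17B4, a peroxisomal enzyme of the same list, was named after its values were seen: 1 of its probes was called at -0.73, and the others differed by 0.26 and 0.34 without a call. CYP11B1 was not analysed here.

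Regulators of the cortex held a single call by brightest probe. By limma 0 of the 33 genes of the ACTH receptor, cAMP signalling and adrenal transcription factors were called by brightest probe. Of the 33, 6 had an unadjusted p under 0.05, beside 16.0% of all genes. MC2R, the ACTH receptor, differed by 0.19 (interval -0.04 to 0.42), its accessory protein MRAP by -0.24 (-0.57 to 0.10) and the steroidogenic factor NR5A1 by -0.03 (-0.20 to 0.15). Among 12 genes of angiotensin signalling and glomerulosa channels, only the potassium channel KCNQ1 was called (8.33%, against 2.97% of all genes). It was lower, at -0.71 (SE 0.16, adjusted p = 0.0295), and it missed the threshold with the slide as a block (adjusted p = 0.187).

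Of 35 genes of cholesterol synthesis, uptake and storage with a probe, 3 were called lower in Large White and none higher. They were SOAT1, which esterifies cholesterol for storage (-0.65, SE 0.14, adjusted p = 0.0211), NPC2, which moves cholesterol out of lysosomes (-0.47, SE 0.07, adjusted p = 0.00281), and LIPA, the lysosomal acid lipase (-0.38, SE 0.09, adjusted p = 0.0421). These 3 made up 8.57% of the list, against 2.97% of all genes, and its median difference was -0.02. SOAT1 ranged from 12.27 to 12.63 in Large White and from 12.69 to 13.49 in Creole, and NPC2 from 15.23 to 15.46 and from 15.63 to 15.98, without overlap in either. All 4 probes of NPC2 were called. LIPA had probes on both sides of 0 and was not past the threshold with the slide as a block (adjusted p = 0.165). SCARB1, a receptor that takes up cholesterol from high-density lipoprotein, differed by -0.03 without a call.

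Several granins and a prohormone convertase of the medulla were higher in Large White. Of 22 such genes with a probe, 6 were called higher and none lower. That is 27.3% of the list, against 2.97% of all genes, and the median difference of the list was 0.23. The called genes were the secretogranins SCG2, SCG3 and SCG5, chromogranin B (CHGB), proenkephalin (PENK) and the convertase PCSK1, which cuts prohormones in granules. With the slide as a block 6 were again called, and on the slides with both breeds alone 5 were, without SCG5. Leaving out 1 pig gave 5 to 8.

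SCG2 had values of 13.72, 14.13 and 14.27 (lowest, median, highest) in Large White and 12.31, 12.69 and 13.35 in Creole. The pigs did not overlap, the difference was 1.22 (SE 0.17, adjusted p = 0.00194), and all 4 probes were called. SCG3 was higher by 1.02 (SE 0.15, adjusted p = 0.00298) with all 4 probes called, and PCSK1 by 0.88 (SE 0.11, adjusted p = 0.000757) with all 3. PENK was higher by 0.86 (SE 0.13, adjusted p = 0.00286), CHGB by 0.61 (SE 0.10, adjusted p = 0.00494) and SCG5 by 0.55 (SE 0.12, adjusted p = 0.0228).

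Other members of the list went the other way or showed no call. Neuropeptide Y (NPY) differed by -3.07 with a wide error (SE 0.92, adjusted p = 0.098), and SST by -1.17 (SE 0.57, adjusted p = 0.336). The neuropeptide CCK, which the list did not hold and which was named after its values were seen, was called lower at all 4 of its probes, from -2.78 to -2.27, and its brightest probe missed the threshold with the slide as a block (adjusted p = 0.072). CHGA itself differed by 0.17 (SE 0.07, adjusted p = 0.214) at its brightest probe, whose pigs did not overlap, while its other probes were called at 0.32, 0.81 and 0.90. The mean log2 value was 18.69 at the brightest probe and 16.48, 12.65 and 12.06 at the others, in that order. The difference of CHGA was thus smaller at its brighter probes, and the cause was not tested. The mean over the whole list overlapped between the breeds, from 10.47 to 10.82 in Large White and from 10.16 to 11.09 in Creole.

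Of 12 genes of catecholamine synthesis and storage with a probe, limma called 0 by brightest probe, 5 had an unadjusted p under 0.05 against 16.0% of all genes, and the median difference was 0.21. PNMT, which makes adrenaline from noradrenaline, differed by 0.57 (SE 0.15, adjusted p = 0.0685), with values from 14.98 to 15.60 in Large White and from 14.20 to 15.12 in Creole, and with the slide as a block it was called (adjusted p = 0.0178). Dopamine beta-hydroxylase (DBH) differed by 0.31 (SE 0.18, adjusted p = 0.454) and the decarboxylase DDC by 0.36 (SE 0.18, adjusted p = 0.35). The mean of this list was 12.82 to 13.07 in Large White and 12.62 to 12.84 in Creole, and that of the steroid synthesis list 13.51 to 13.78 and 13.57 to 13.72. The part of either in the granin result was not tested. TH was not analysed here.

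Several adipocyte genes were lower in Large White. Of 18 markers of fat cells with a probe, 6 were called lower and none higher (33.3%, against 2.97% of all genes). The median difference was -0.29, and 3 of the 18 differences lay above 0. Those called were the hormone adiponectin (ADIPOQ), the fatty acid carriers FABP4 and CD36, the droplet proteins PLIN1 and CIDEA, and glycerol-3-phosphate dehydrogenase (GPD1). ADIPOQ had values of 7.82, 8.27 and 8.78 (lowest, median, highest) in Large White and 8.44, 10.04 and 10.50 in Creole, with 1 Creole pig inside the Large White range. Its difference was -1.52 (SE 0.30, adjusted p = 0.0158), and 9 of its 10 probes were called.

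FABP4 was lower by brightest probe, at -1.27 (SE 0.23, adjusted p = 0.0105), PLIN1 at -0.94 (SE 0.17, adjusted p = 0.00851), CD36 at -0.78 (SE 0.14, adjusted p = 0.00765), CIDEA at -0.70 (SE 0.12, adjusted p = 0.00658) and GPD1 at -0.49 (SE 0.10, adjusted p = 0.0178). Leptin (LEP) differed by -0.04, and lipoprotein lipase (LPL) by 1.11 in the opposite direction (SE 0.29, adjusted p = 0.055). All 7 probes of LPL were above 0, from 0.19 to 1.11, and 1 other than the brightest was called higher, at 0.81 (adjusted p = 0.0498). The mean of the list was 9.56 to 9.93 in Large White and 9.84 to 10.32 in Creole. With the slide as a block CIDEA alone was called, and on the slides with both breeds CIDEA and CD36 were, while leaving out 1 pig gave 6 or 7 calls.

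Differences of interferon-stimulated genes lay mostly above 0. Of 41 with a probe, 5 were called higher and none lower (12.2%, against 2.97% of all genes). The median was 0.27, and 38 of the 41 differences lay above 0, beside 6340 of all 12602 genes. The called genes were XAF1, the antiviral viperin (RSAD2, 0.79, SE 0.20, adjusted p = 0.048), IFIT2 (0.57, SE 0.12, adjusted p = 0.0226), the RNA sensor DDX58 (0.49, SE 0.09, adjusted p = 0.00915) and IFIT5 (0.42, SE 0.09, adjusted p = 0.0215). ISG15, a ubiquitin-like protein induced by interferon, differed by 0.91 without a call (SE 0.25, adjusted p = 0.0744), and MX1 by 0.13 (SE 0.53, adjusted p = 0.941). The list mean was 10.11 to 10.68 in Large White and 9.66 to 10.26 in Creole. With the slide as a block, or on the slides with both breeds alone, XAF1 was called and no other gene of the list. The count was 2 without Creole replicate 3, 3 without Large White replicate 1 and 9 without Creole replicate 6. Lists of immune cell markers leaned the same way. Of the lymphocyte markers 16 of 19 differences lay above 0 (median 0.17), and of the macrophage markers 17 of 21 (median 0.20).

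**Figure D3:**
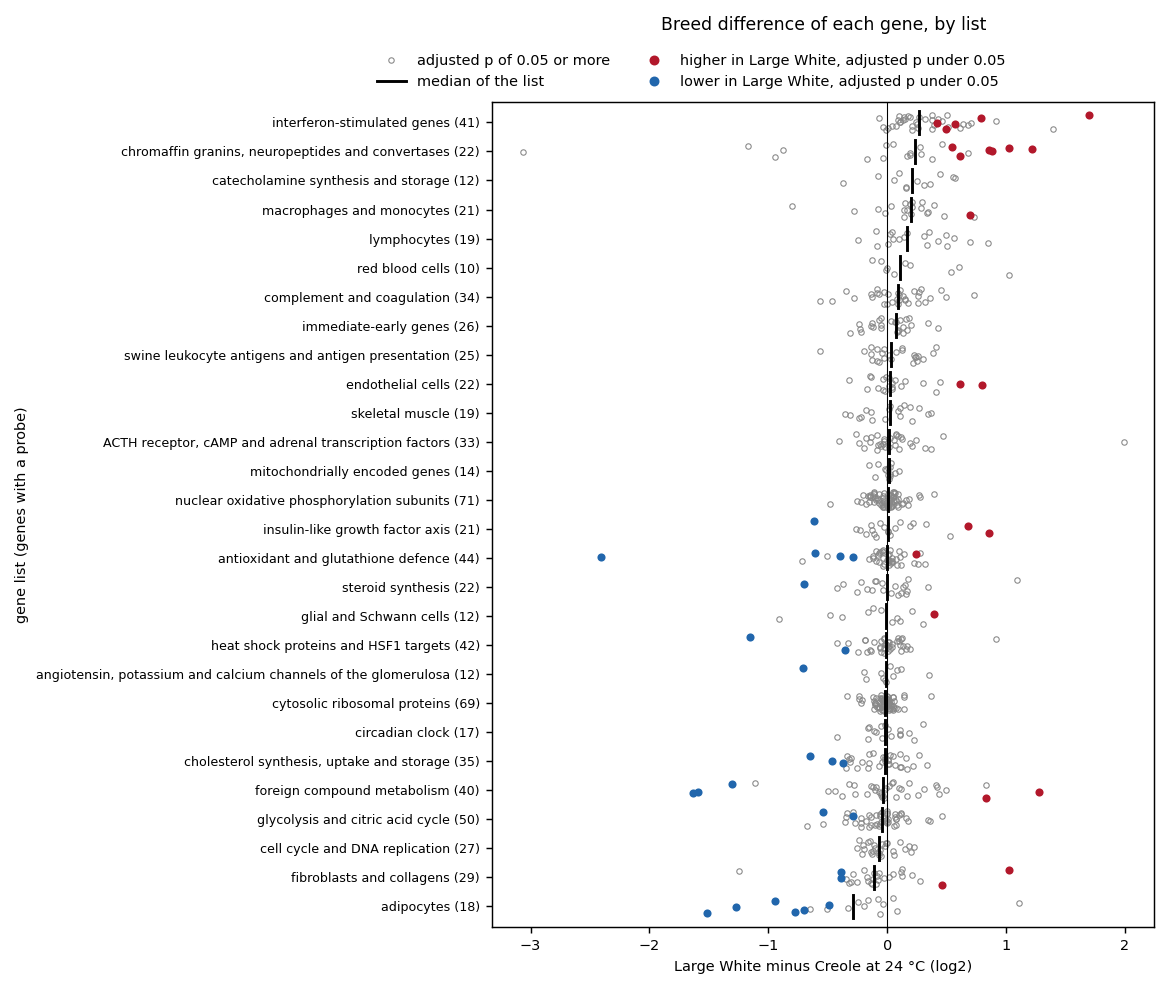
Difference between Large White and Creole at 24 °C (x axis, log2) of every gene by its brightest probe, for each gene list except the Y-linked genes (y axis, number of genes with a probe), with a bar for the list's median. Red points are called higher and blue points called lower in Large White: 6 genes of the granin list and 5 interferon-stimulated genes are red, and 6 adipocyte genes are blue.

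Defences against oxidants gave 5 calls among 44 genes (11.4%, against 2.97% of all genes), 4 of them lower in Large White. Beside MGST2, the selenium transport protein SELENOP was lower, at -0.61 (SE 0.08, adjusted p = 0.00201), with values from 15.93 to 16.26 in Large White and from 16.53 to 16.94 in Creole, and 12 of its 13 probes were called. The peroxiredoxin PRDX1 (-0.40) and the transferase MGST1 (-0.29) were also lower, and PRDX5 was higher by 0.24 (SE 0.06, adjusted p = 0.0312). Among 40 genes of foreign compound metabolism 5 were called (12.5%, against 2.97% of all genes). CYP1A2 and the alcohol dehydrogenase ADH4 (0.83) were higher, and CES1, CES3 and EPHX2 lower, where CES1 and CES3 stand for a shared probe sequence. PRDX1 (adjusted p = 0.191), MGST1 (adjusted p = 0.119) and CES1 (adjusted p = 0.11) missed the threshold with the slide as a block.

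The growth factor IGF2, an imprinted gene, was higher in Large White. Its values were 13.74, 14.26 and 14.48 (lowest, median, highest) in Large White and 12.73, 13.23 and 14.04 in Creole, which overlap. The difference was 0.86 (SE 0.19, adjusted p = 0.0266), 7 of its 9 probes were called and all 9 were above 0, but with the slide as a block it missed the threshold (adjusted p = 0.0581). IGFBP6, which binds IGF2 with preference, was higher by 0.68 (SE 0.16, adjusted p = 0.0319), and the stanniocalcin STC2 lower, at -0.62 (SE 0.13, adjusted p = 0.0193). These are 3 of 21 genes of the insulin-like growth factor axis (14.3%, against 2.97% of all genes).

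Of 29 markers of fibroblasts and stroma, RGS5 and ACTA2 were called higher and PDGFRA and COL6A1 lower (13.8%, against 2.97% of all genes). The median difference of the list was -0.11, and 9 of the 29 differences lay above 0. The pericyte gene RGS5 was higher by 1.02 (SE 0.08, adjusted p = 4.23e-05), with values from 12.85 to 13.16 in Large White and from 11.71 to 12.15 in Creole. Its other probes differed by 0.68 and 0.64, both called, and by 0.25 without a call. Smooth muscle actin (ACTA2) was higher by 0.46 at its brightest probe (SE 0.12, adjusted p = 0.0492), which was called alone among its 8 probes. Collagen COL6A1 was lower at its brightest probe, at -0.39 (SE 0.09, adjusted p = 0.0295), and differed by 0.05 at its other probe (adjusted p = 0.902). Of 22 endothelial genes KDR and the lymphatic marker LYVE1 (0.61, SE 0.15, adjusted p = 0.0487, with its other probe at 0.01) were called, and of 21 macrophage genes C1QC (0.70, SE 0.18, adjusted p = 0.0489). These shares, 9.09% and 4.76%, stand beside 2.97% of all genes. The list means overlapped between breeds: 10.45 to 10.63 in Large White and 10.21 to 10.65 in Creole for endothelial cells, 10.11 to 10.45 and 9.85 to 10.69 for macrophages, and 11.59 to 12.04 and 11.74 to 11.99 for fibroblasts and stroma. Blocked on the slide, RGS5 was called (adjusted p = 0.00124), and PDGFRA, KDR, LYVE1, ACTA2, COL6A1 and C1QC were not, with adjusted p from 0.0915 to 0.226.

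Energy metabolism and chaperones held few calls, at shares near the 2.97% of all genes. Among 42 heat shock proteins and targets of HSF1, the mitochondrial chaperone TRAP1 (-1.15, SE 0.28, adjusted p = 0.0414) and DNAJB1 (-0.36, SE 0.09, adjusted p = 0.041) were lower (4.76% of the list). Among 50 genes of glycolysis and the citric acid cycle, the succinate-CoA ligase subunit SUCLG2 (-0.54, SE 0.07, adjusted p = 0.00197) and the kinase PDK3 (-0.29, SE 0.07, adjusted p = 0.0395) were lower (4.0%). Of these, SUCLG2 was called with the slide as a block (adjusted p = 0.00932). No call by brightest probe was found by limma among the 71 nuclear subunits of oxidative phosphorylation, the 14 mitochondrially encoded genes, the 69 ribosomal proteins, the 27 cell cycle genes, the 17 clock genes, the 26 immediate-early genes, the 25 leukocyte antigen genes, the 34 complement and coagulation genes, the 19 lymphocyte, 19 skeletal muscle and 10 red blood cell markers, and the 3 Y-linked genes. With the ACTH and catecholamine lists these are 379 genes, of which 48 had an unadjusted p under 0.05. That share, 12.7%, lay below the 16.0% of all genes.

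Whether several probes of a gene agree was then described for the 5490 genes with at least 2 probes. In 320 of them (5.83%) at least 1 probe was called, in 63 all probes were called, and in 191 exactly 1 probe was. All probes lay on the same side of 0 in 253 of the 320 (79.1%), beside 3259 of all 5490 (59.4%). Counted by distinct sequences, 119 of 312 genes with a call (38.1%) had at least 2 called. A gap of more than 1 between the probes of a gene was present in 31 of the 320 genes and in 50 of all 5490. Probes of a gene share the pigs and are not replicates.

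The genes with the most called probes are given for the size of their differences, since that count chose them. At CHGB 16 of 17 probes were called, and the 17 differences ran from 0.26 to 0.75. At SELENOP 12 of 13 were called, from -1.08 to 0.28 over all 13. At PDLIM3 all 10 were called but ranged from -3.14 to -1.01, and at ADIPOQ 9 of 10 were, from -1.61 to -0.69 over the 10. EPCAM, an epithelial adhesion protein, had 19 probes, all above 0 and from 0.75 to 1.46, of which 11 were called, but its brightest probe was not (0.92, SE 0.25, adjusted p = 0.0679). The 4 called probes of CCK, the peptide cholecystokinin, share a run of 36 bases. KHDRBS3, an RNA-binding protein chosen after its values were seen, had all 6 probes called, from -1.86 to -1.62.

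**Figure D4:**
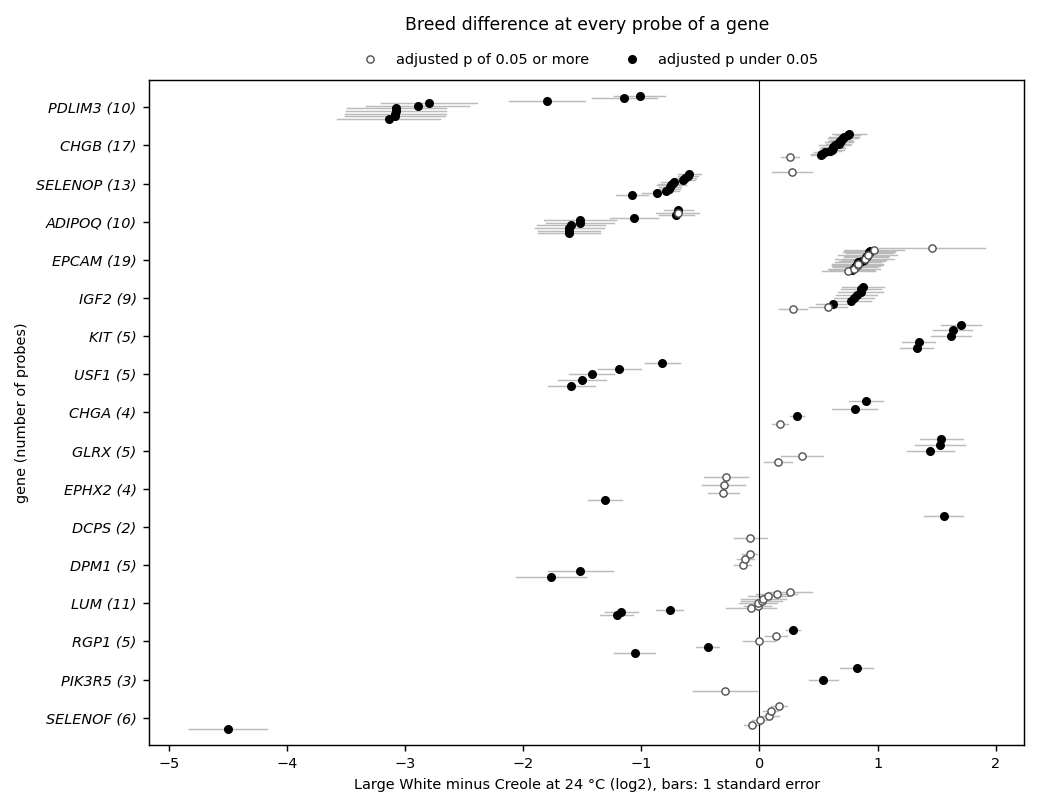
Difference between Large White and Creole at 24 °C (x axis, log2) at every probe of 17 genes (y axis, number of probes), with filled points for called probes, open points for the others and bars of 1 standard error. The probes of PDLIM3, KIT and USF1 are all called on 1 side, while LUM, RGP1 and SELENOF hold called probes apart from the rest.

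In other genes the probes disagreed. RGP1, which takes part in Golgi traffic, was the only gene of the 5490 with called probes in opposite directions by limma. Its brightest probe was higher in Large White by 0.28 (SE 0.06, adjusted p = 0.0195), and a pair of other probes was lower, at -0.44 (SE 0.09, adjusted p = 0.0227) and -1.05 (SE 0.17, adjusted p = 0.00518). The last 30 bases of the first probe and 30 bases from both lower probes are shown because the 3 sequences overlap, 5′ to 3′ and taken from the deposited probe sequences of 60 bases, and capitals mark the bases beyond the stretch shared with the first probe:
A_72_P287794, higher: acttatttattcagaataaattggcagctg
A_72_P494650, lower: taaattggcagctgCTAGTGGTTTCCCTGG
A_72_P501524, lower: ttggcagctgCTAGTGGTTTCCCTGGAAGT
The lower probes share 44 and 27 bases with the higher one and a run of 43 bases with each other, which none of the other 3 probes holds.

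LUM, DPM1, PIK3R5 and SELENOF were chosen after their values were seen, because their probes part along their sequences. LUM encodes lumican, a proteoglycan of collagen fibrils, and 3 of its 11 probes were called lower while the other 8 lay between -0.07 and 0.26. The 3 called probes share a run of 52 bases that none of the other 8 holds, and they are shown with the last 30 bases of an uncalled probe (difference 0.03) whose end overlaps their first bases, capitals marking what lies beyond the shared stretch:
A_72_P573664, difference 0.03: acaaatacacagacacacacacacaccaaa
A_72_P583531, difference -0.76: acacaccaaaCAATGCTTTATTTGTAAATT
A_72_P624127, difference -1.17: acacaccaaaCAATGCTTTATTTGTAATTT
A_72_P665036, difference -1.21: acacaccaaaCAATGCTTTATTTGTAAATT

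DPM1, a subunit of dolichol-phosphate mannose synthase, was called lower at 2 of its 5 probes, and the other probes lay between -0.14 and -0.08. The called probes overlap in the 26 bases in capitals:
A_72_P634594, difference -1.76: aggaACTGCATATATTCATGGGATGAAGCA
O7965, difference -1.52: ACTGCATATATTCATGGGATGAAGCAcgcc

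In PIK3R5, a regulatory subunit of phosphoinositide 3-kinase, and in SELENOF, a selenoprotein of the endoplasmic reticulum, a called and an uncalled probe read nearly the same stretch, and capitals mark the aligned bases that differ between the probes of a gene:
PIK3R5 A_72_P232232, difference 0.82, called: tcGtcctaggacccCaaatggaatttaacg
PIK3R5 A_72_P723223, difference -0.29, not called: tcAtcctaggacccAaaatggaatttaacg
SELENOF CUST_56_PI427286967, difference -4.50, called: tctAccattgatcagtctcttaccgAgagg
SELENOF A_72_P562884, difference 0.17, not called: tctTccattgatcagtctcttaccgTgagg
The called SELENOF probe was the only one of 6 to be called (SE 0.33, adjusted p = 2.30e-05), and the other 5 lay between -0.06 and 0.17.

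Disagreement also touched genes named above. DCPS was called at 1 of 2 probes (1.56, against -0.08 at the other), EPHX2 at 1 of 4 (the others from -0.31 to -0.28), GLRX at 3 of 5 (the others 0.16 and 0.36) and KDR at 1 of 3 (0.80, with the lowest of the others at -0.10). COL6A1 and LYVE1 were called at 1 of 2, and CES1 at 1 of 8, whose probes ran from -1.63 to 0.10. KCNQ1, STC2, SCG5 and IFIT5 (2 probes each), SOAT1, SUCLG2, PDK3, RSAD2, IFIT2 and DDX58 (3 each), LPL (7), ACTA2 (8) and MGST1 (9) were also called at 1 probe, with the other probes of each on the same side of 0. A further 186 called genes have 1 probe only and could not be checked in this way.

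The probes called at 24 °C were then read in the HS pigs, which the comparison had not used, though they share litters with the TN pigs. Of the 1453 probes, 1415 (97.4%) had the same sign in HS pigs, beside 65.9% of all probes. In HS pigs 630 probes were called (1.39%), 260 higher and 370 lower in Large White, and 289 of the 1453 were among them, which is 19.9% of the probes called in TN and 45.9% of those called in HS. All 289 had the same direction. The median ratio of the HS to the TN difference over the 1453 probes was 0.706, with the TN values being those that chose the probes.

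Among the 30 genes of largest difference, 29 kept their sign in HS pigs and 16 were called there. OAZ3 differed by 2.37 (adjusted p = 0.00642) in HS pigs, KIT by 1.74 (adjusted p = 9.18e-05), PDLIM3 by -3.36 (adjusted p = 0.0163), MGST2 by -2.49 (adjusted p = 0.000133) and USF1 by -1.78 (adjusted p = 3.21e-05). GUSB (1.12, adjusted p = 0.175) and XAF1 (1.32, adjusted p = 0.096) kept their sign without a call at their brightest probes. The other GUSB probe was called (1.27, adjusted p = 0.032). Creole HS replicate 4 stood at 13.48 for GUSB, above every Large White HS pig. HSD3B1 was again lower, at -0.87 (adjusted p = 0.00614), and STAR, uncalled in TN pigs, was lower at -0.46 (adjusted p = 0.0253). ADIPOQ was lower at -1.73 (adjusted p = 9.18e-05), FABP4 at -1.39 (adjusted p = 0.0023) and PLIN1 at -0.86 (adjusted p = 0.00183), and LPL was called higher by 1.57 (adjusted p = 0.0089). Of the granin list, SCG2 was called (0.83, adjusted p = 0.0482), and no interferon-stimulated gene was.

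A test of the difference between temperatures found no probe. By limma's interaction contrast 0 probes passed an adjusted p of 0.05, the lowest adjusted p was 0.079, and 1491 probes had an unadjusted p under 0.05. With the slide as a block the counts were 0 and 1594. Wide gaps between the temperatures were seen at PUSL1 (-1.36 in TN and -0.03 in HS pigs), DLL3 (-1.85 and 0.82), SV2C (-1.81 and -0.55) and ATP1B2 (1.49 and 0.08), none of which passed after adjustment.

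**Figure D5:**
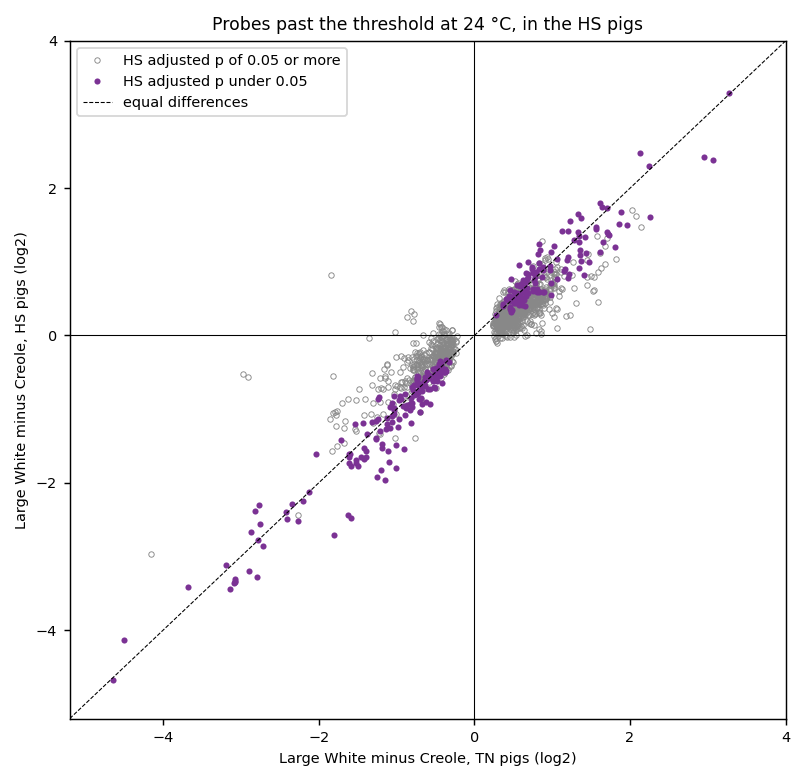
Difference between Large White and Creole (log2) in HS pigs (y axis) against TN pigs (x axis) at the 1453 probes called in TN pigs, with filled points for probes also called in HS pigs and a dashed line of equal differences. The 289 filled points all lie on the same side of 0 in both groups.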

How the data were processed

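RNA of the whole adrenal gland of each pig was labelled with Cy3 and hybridised to a porcine Agilent array. The authors deposited scanner files with the intensity of each spot, read by Feature Extraction 10.10.1.1, together with a log2 table, the median pixel signal of 45348 probes after quantile normalization, with 93 missing values and 0 columns of other samples. Groups were taken from the labels. The deposited log2 values of the 12 TN arrays of both breeds were tested by lmFit and eBayes of limma 3.58.1 (R 4.3.3), without covariates, with Benjamini-Hochberg adjustment at 0.05. The study's random effects (pen, slaughter day, parents) are not in the labels.

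Probes were named by the deposited gene name (18950 probes), RefSeq accession (2471), older symbol (170) or description (33), 3133 kept a file name absent from RefSeq, and 199 antisense probes and 20392 others carried no name. Gene positions follow RefSeq for Sscrofa11.1. Named genes were the 15 of largest difference in each direction among called genes without overlap and well above background in a group, up to 4 called genes per list, the 5 genes with most called probes and those called in opposite directions, a fixed set of adrenal genes and 2 unnamed probes in each direction. Other named genes were chosen after their values were seen. The members and the 29 lists were chosen with earlier results of these data known, and 18 list genes were matched through another symbol. A called gene of the lists is not reported here. Missing values (18 probes, of which 1 was called) were left out of each probe's fit. The script was tested on simulated data. The number of arrays limits the precision.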

Additional observations from a re-analysis of the deposited data

Results flagged for a closer look

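Each value below is the gap of a pig to its nearest fellow divided by the range of its group, and chance marks about 1 in 20 groups. Of 162 groups examined, 11 stood out.

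Among the Creole pigs, replicate 4 was high for GLRX (0.839, log2 value 9.45 against 8.43 to 8.59 in the others) and low for MGST2 (0.696, 11.90 against 12.57 to 12.86) and PDGFRA (0.643). Replicate 2 was low for ATP1B2 (0.812, 11.89 against 13.61 to 14.00), replicate 6 low for PDLIM3 (0.662, 10.06 against 12.24 to 13.36), replicate 1 high for LYVE1 (0.762) and replicate 5 low for SUCLG2 (0.771). Among the Large White pigs, replicate 4 was high for MGST2 (0.835, 11.79 against 9.62 to 9.98) and RSAD2 (0.766, 8.23 against 7.37 to 7.57). Replicate 6 was low for CYP1A2 (0.631), and replicate 5 high for the unnamed probe A_72_P788198 (0.649).

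Of 14957 probes of the scanner files that the deposited log2 table does not hold, 18 were called between the breeds at 24 °C, 9 in each direction. At 15 of them at least 1 of the 12 arrays was well above background. One of them, the probe of C1GALT1, an enzyme of O-glycan synthesis, was well above background on 6 Creole arrays and on none of the Large White arrays, so its level in Large White is only a bound.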

How the results depend on the processing

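The 1453 called probes became 723 with the slide as a fixed block and 1684 with it as a random block. On the slides with both breeds alone (an alternative chosen after seeing the data) they were 533. The count was 478 at a threshold of 0.01, 2558 at 0.10 and 229 with a difference of at least 1. Leaving out each pig in turn gave 959 to 1611, the lowest without Creole replicate 3 and then 967 without Large White replicate 2. Other normalizations, filters, samples in the fit, array weights and variance priors gave 1259 to 1881. The 374 genes were 343 by the mean of all probes and 506 by the probe of lowest p. No direction among the 73 called named values was reversed under any of these alternatives, and 35 stayed past the threshold under all, among them OAZ3, KIT, PDLIM3, MGST2, HSD3B1, SCG2 and CHGB. With the slide as a fixed block 31 of the 73 missed the threshold, with the slide as a random block 0 did, and on the reduced slides 37 did. The cause was not tested, though the reduced slides hold fewer pigs. No paired analysis was possible because the replicate numbers only name pigs.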

Other observations

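Large differences also lay at probes without a gene name. A_72_P097651 was higher in Large White by 3.28 (SE 0.13, adjusted p = 6.10e-08), with values from 8.95 to 9.39 in Large White and from 5.62 to 6.44 in Creole, and differed by 3.29 in HS pigs (adjusted p = 2.16e-07). A_72_P307223 was higher by 2.13 (SE 0.49, adjusted p = 0.0336), with overlapping pigs.

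A_72_P788198 differed by -4.65 (SE 1.04, adjusted p = 0.0279), and with the slide as a block it missed the threshold (adjusted p = 0.175). It was well above background on 4 of the 6 Large White arrays and on all 6 Creole arrays, so that the size of the difference rests in part on Large White values near background. Its Large White values lay between 5.13 and 7.74 and its Creole values between 6.75 and 13.09, so that the Creole pigs were spread widely. A_72_P066171 differed by -4.16 (SE 0.87, adjusted p = 0.0202), with Creole values from 5.86 to 12.48. In HS pigs the former differed by -4.68 (adjusted p = 0.0163) and the latter by -2.97 (adjusted p = 0.196).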
